A study of Mus musculus with 18 samples.

Results

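The genes described here control how the liver takes up glucose, breaks it down and stores it as glycogen. They are 9 genes of a table of 14451, chosen by their symbols: *Slc2a2*, *Gckr*, *Pklr*, *Pfkfb1*, *Gys2*, *Pygl*, *Ppp1r3b*, *Ppp1r3c* and *Ppp1r3g*. All 9 were among the 14449 genes tested. Polyadenylated RNA was sequenced from whole livers of wild-type male mice aged 8 to 9 weeks, which had lived under 12 h of light and 12 h of dark. The groups were 6 zeitgeber times (ZT, hours after lights on), with ZT1, ZT5 and ZT9 in the light and ZT13, ZT17 and ZT21 in the dark, and the labels gave no treatment, allele or diet that set the groups apart. Each group had 3 livers, each from a mouse of its own, selected for RNA quality among 5 mice. Every time point comes from other mice, so a rhythm here is a difference between animals killed at different times. Depth lay between 10268168 and 23242842 estimated reads per liver.

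Glucose crosses the hepatocyte membrane through GLUT2, the product of *Slc2a2*, in either direction. The glucose is then phosphorylated, and the regulatory protein encoded by *Gckr* restrains this step when glucose is scarce. *Pklr* encodes the liver and red cell pyruvate kinase, the last step of glycolysis, and *Pfkfb1* the enzyme with both a kinase and a phosphatase activity that sets fructose 2,6-bisphosphate, an activator of glycolysis. Glycogen is built by glycogen synthase (*Gys2* in liver) and broken down by glycogen phosphorylase (*Pygl*). Protein phosphatase 1 turns the synthase on and the phosphorylase off, and the subunits encoded by *Ppp1r3b*, *Ppp1r3c* and *Ppp1r3g* bring it to the glycogen particle. The liver stores glycogen in the hours of feeding, which for mice is mostly the dark phase, and spends it in the hours of fasting.

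In GRCm38 coordinates of the GENCODE M21 annotation, *Slc2a2* lies at chr3:28697903-28731359 and *Pklr* at chr3:89136142-89146784, both on the plus strand. *Gckr* is at chr5:31297443-31327314 and *Pfkfb1* at chrX:150588229-150643878, also on the plus strand. *Gys2* is at chr6:142422613-142473109 and *Pygl* at chr12:70190811-70231488, both on the minus strand. Of the phosphatase subunits, *Ppp1r3b* is at chr8:35375739-35388139 and *Ppp1r3g* at chr13:35958839-35970388 on the plus strand, and *Ppp1r3c* is at chr19:36731731-36736653 on the minus strand. All are annotated as protein coding. Exons of *Pklr* share 711 bases with *Hcn3* on the other strand, and exons of *Pfkfb1* share 123 bases with *Apex2* on the other strand. Whether reads were counted by strand is not given in the sources used here, and without strand the reads of these stretches cannot be told apart.

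Clock and glucose-sensing factors bind defined letters in promoters, so the 250 bases before each annotated RefSeq start were searched for them on both strands. RefSeq windows (GRCm38.p6) were found for 7 of the 9 genes, 11 windows in all, and *Gys2* and *Ppp1r3b* had none. An E-box, CACGTG, the letters read by the clock activators, was found in 1 of the 11 windows, that of *Ppp1r3c*, 104 bases before the start. The carbohydrate response element, a pair of E-box-like stretches a few bases apart that is read by the glucose-sensing factor ChREBP (*Mlxipl*), was found in 1 window, that of the inner start of *Pklr*, 170 bases before it. Of all 32851 RefSeq windows, 6.02% held the E-box and 0.454% the carbohydrate response element. The D-box, TTATGTAA or TTACGTAA, was in none of the 11 windows and in 0.931% of all, and the ROR core, TAGGTCA or TGGGTCA, was in 1 (the outer start of *Pklr*, 151 bases before it) and in 5.38% of all. The 2 windows with an E-box or a carbohydrate response element are shown without the bases that lie in annotated exons, at chr19:36736654-36736854 on the minus strand and chr3:89136373-89136571 on the plus strand, with the matching letters in capitals. A match is a description of the letters and not a binding site.
Ppp1r3c: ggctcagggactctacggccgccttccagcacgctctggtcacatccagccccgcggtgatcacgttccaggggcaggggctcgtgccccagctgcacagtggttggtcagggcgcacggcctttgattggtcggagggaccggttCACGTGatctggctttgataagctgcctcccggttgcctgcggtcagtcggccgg
Pklr: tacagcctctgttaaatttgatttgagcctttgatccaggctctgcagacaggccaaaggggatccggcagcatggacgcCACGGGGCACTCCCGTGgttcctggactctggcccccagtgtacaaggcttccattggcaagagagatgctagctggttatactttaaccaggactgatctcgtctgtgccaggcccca

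Hepatocyte genes dominated the libraries, with *Alb* at a mean value of 64809, and the time labels were compared with the levels of the clock genes *Arntl*, *Dbp*, *Nr1d1* and *Per2*. By these 4 genes, 17 of the 18 livers were closest to the other livers of their own time, and ZT5 replicate 3 was closest to ZT9. ZT5 replicate 1 had the highest summed level of Kupffer cell, endothelial, stellate (280.3), leukocyte (15.2) and erythroid (674) markers of all livers. The calls without either liver are given after the results.

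Of the 9 genes, 8 changed over the day, and they did so at different hours. *Slc2a2* and *Gys2* were highest toward the end of the light phase, *Pklr*, *Pfkfb1* and *Ppp1r3b* in the first part of the dark phase, and *Ppp1r3c* and *Gckr* around the end of the dark phase. *Pygl* changed little, and *Ppp1r3g* was close to the lowest value that the sequencing could give. A 24 h cosine fitted on log2(value + 1) with limma was called for 8 of the 9 genes at an adjusted p below 0.05, when 36.8% of all genes were called. The fitted peak lay in the light for 2 of them (18.6% of all genes) and in the dark for 6 (18.2% of all genes). With every liver scaled to the same total, 7 were called, 3 with a peak in the light and 4 in the dark. A second test that makes no assumption on the shape of the curve, the limma F test of any difference between the 6 time points, called the same 8 genes, against 29.2% of all genes. The rank test JTK called 4 genes (*Slc2a2*, *Pfkfb1*, *Gys2* and *Ppp1r3b*), against 14% of all genes. Its null distribution is exact for 6 distinct groups, but the cosine orders tie some of the times, so the test is strict and misses calls. The livers of the highest time point were all above those of the lowest in 8 of the 9 genes, every one but *Pygl*, but this held for 70.8% of all genes, since both times were picked from the data.

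**Figure D1:**
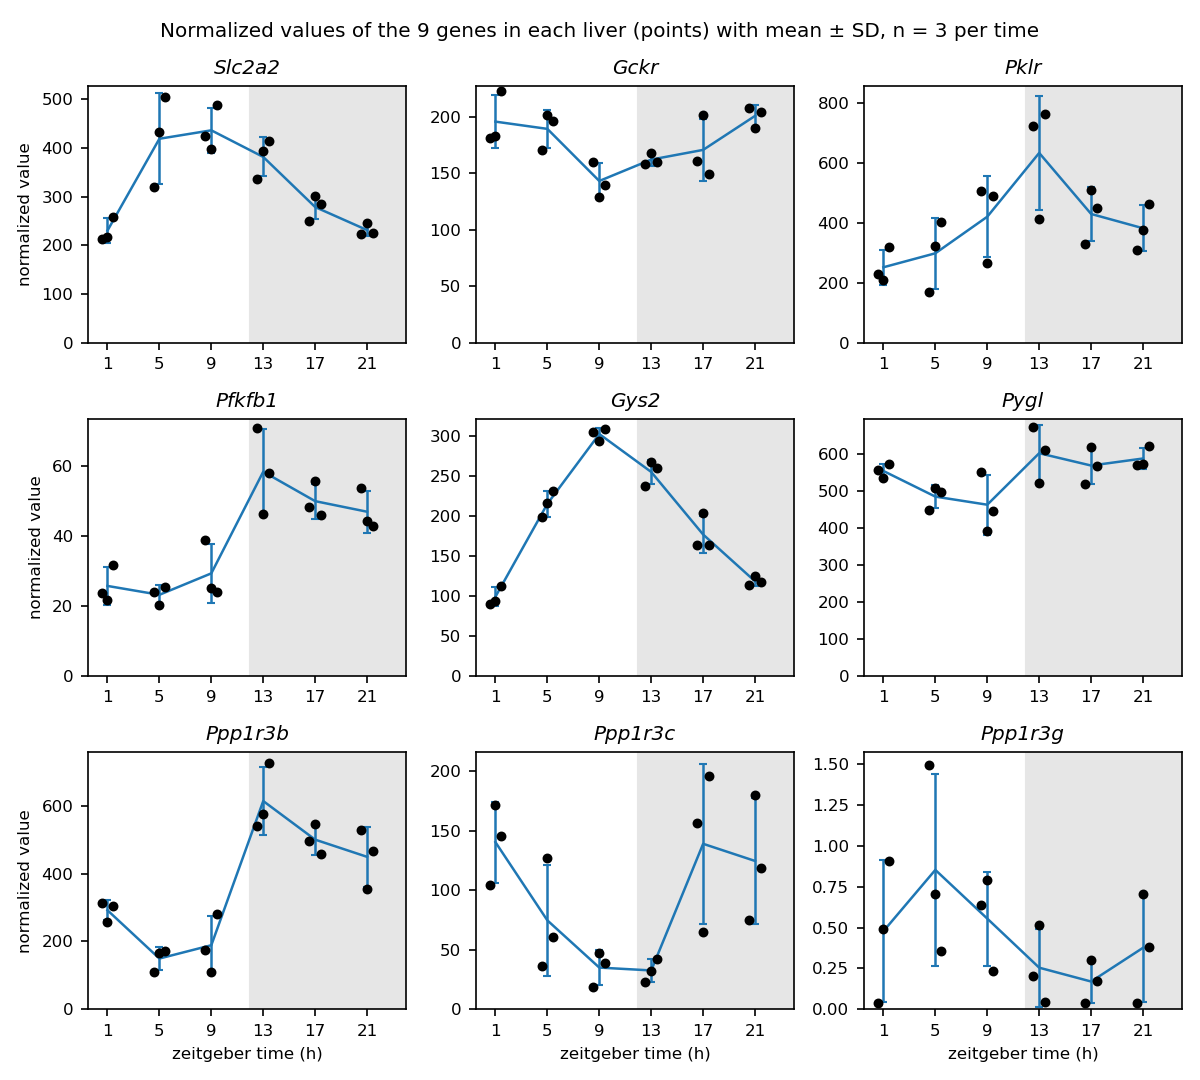
Normalized value (vertical axis, deposited linear scale, from 0) of each of the 9 genes against zeitgeber time in hours, with 1 point per liver, lines through the means and bars of 1 SD (n = 3 per time); the dark phase is shaded. *Gys2* rose from 99.0 at ZT1 to 303 at ZT9 with narrow bars, whereas *Ppp1r3g* stayed at or below 1.5 in every liver.

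*Slc2a2*, the glucose transporter gene of hepatocytes, was at its highest in the second part of the light phase. In the light, its values were 214, 218 and 259 at ZT1, 320.2, 432 and 505 at ZT5, and 424, 398 and 488 at ZT9. In the dark, they were 337, 393 and 415 at ZT13, 251, 301 and 284 at ZT17, and 222, 246 and 226 at ZT21. The livers of ZT5, ZT9 and ZT13 were all above those of ZT1, ZT17 and ZT21. The fitted curve peaked at ZT9.34 ± 0.44 h (SE) with an amplitude of 0.52 ± 0.06 on the log2 scale, a 2.06-fold change from trough to peak (95% interval 1.73 to 2.45). Its adjusted p in limma was 7.0e-06 for the cosine and 3.4e-05 for the time points, and its JTK q-value was 0.0282. The JTK call held in 9 of the 18 fits that left out a liver and was lost, with q up to 0.0651, without ZT1 replicate 3, ZT5 replicate 1, ZT9 replicate 1 or 3, ZT13 replicate 1 or 2 or any liver of ZT17. In the order of the time point means, ZT9, ZT5 and ZT13 were the highest and overlapped with their neighbours, whereas ZT13 and ZT17, and ZT17 and ZT21, did not overlap.

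*Gckr*, the gene of the protein that restrains glucose phosphorylation, varied within narrow limits. Its values were 181, 183 and 222 at ZT1, 170.3, 202 and 196 at ZT5, and 160.3, 129 and 139.9 at ZT9. In the dark, it was at 158, 168 and 159.5 at ZT13, 161, 202 and 149 at ZT17, and 208, 189.7 and 204 at ZT21. The livers of ZT9 lay below all livers of ZT21, ZT1 and ZT5, and all 5 pairs of neighbouring means overlapped. The amplitude was 0.22 ± 0.05 on the log2 scale, a 1.35-fold change (1.18 to 1.55), with the peak at ZT23.3 ± 0.83 h. The adjusted p of limma was 0.00427 for the cosine and 0.0120 for the time points, and JTK made no call (q = 0.123). When every liver was scaled to the same total, the fitted peak moved across the end of the dark phase to ZT0.20, so the count of genes peaking in the dark holds *Gckr* under the authors' scaling and under median ratios (ZT23.2) but not under equal totals.

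*Pklr* and *Pfkfb1*, the glycolytic pair, both had their highest mean at ZT13, the first time point of the dark. *Pklr* had values of 228, 209 and 318 at ZT1, 169.8, 321 and 404 at ZT5, and 505, 265 and 491 at ZT9. It then reached 723, 414 and 763 at ZT13, with 330.3, 510.3 and 448 at ZT17, and 308, 376 and 462 at ZT21. All livers of ZT13 exceeded all of ZT1. However, livers of the same time spread from 414 to 763 at ZT13 and from 169.8 to 404 at ZT5, and all 5 pairs of neighbouring means overlapped. The coefficient of variation (SD over mean) of *Pklr* was 0.330 between time points and 0.278 between replicates. The cosine peaked at ZT14.0 ± 0.83 h with an amplitude of 0.57 ± 0.12, a 2.19-fold change (1.54 to 3.13), and an adjusted p of 0.00414 in limma. The time point test gave an adjusted p of 0.0287 in limma and JTK made no call (q = 0.130). The call over time points was lost without ZT1 replicate 1 or 2 or ZT13 replicate 1 or 3, with adjusted p up to 0.0898, and with no trend in the limma prior (0.0605).

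*Hcn3*, the channel gene that shares exon bases with *Pklr*, moved with it. Its value was between 2.11% and 14.4% of that of *Pklr*, and the correlation of both over the 18 livers was r = 0.909. The livers differ in time of day and depth, which both genes share within a liver. Where strand was not used, both genes also share reads. The part of these shared bases in the values of *Pklr* was not tested.

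*Pfkfb1* was low through the light phase and higher through the dark. In the light, it was at 23.6, 21.8 and 31.8 at ZT1, 24.03, 20.2 and 25.3 at ZT5, and 38.9, 25.1 and 23.9 at ZT9. In the dark, it was at 70.9, 46.2 and 58.1 at ZT13, 48.2, 55.6 and 46.1 at ZT17, and 53.8, 44.2 and 42.8 at ZT21. Each of the 9 dark livers was above each of the 9 light livers, and within either phase the neighbouring means overlapped. The cosine peaked at ZT16.2 ± 0.46 h with an amplitude of 0.68 ± 0.08, a 2.56-fold change (2.02 to 3.25). The adjusted p was 1.1e-05 for the cosine and 4.4e-05 for the time points in limma, and the JTK q-value was 0.0354. Of the 18 fits that left out a liver, JTK kept the call in 6, those without ZT1 replicate 3, ZT9 replicate 2 or 3, ZT13 replicate 1 or 3 or ZT21 replicate 1, and lost it in the others with q up to 0.0755. *Apex2*, which shares exon bases with *Pfkfb1*, was at 13.9% to 35.5% of its value (r = 0.743 over the 18 livers), and its part was not tested.

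*Gys2*, the glycogen synthase of liver, had the smallest replicate error of the 9 genes relative to its mean. From ZT1 to ZT9 it rose, with 90.2, 94.0 and 113 at ZT1, 198, 216 and 231 at ZT5, and 305, 295 and 309 at ZT9. It was then lower at each later time, with 238, 267 and 260.4 at ZT13, 164, 203 and 164 at ZT17, and 113, 125 and 117 at ZT21. In 4 of the 5 pairs of neighbouring means the livers did not overlap, the exception being ZT5 and ZT17. The coefficient of variation was 0.405 between time points and 0.0769 between replicates. The cosine peaked at ZT10.5 ± 0.27 h with an amplitude of 0.79 ± 0.06, a 2.98-fold change (2.53 to 3.51). The adjusted p was 1.8e-08 for the cosine and 3.2e-09 for the time points in limma, and the JTK q-value was 0.00758.

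*Slc2a2* and *Gys2* followed each other closely (r = 0.916 over the 18 livers, and r = 0.765 after the mean of each time point was taken off). In the same livers, the summed levels of markers of Kupffer cells, sinusoidal endothelial cells, leukocytes and stellate cells also had fitted peaks in the light, while that of cholangiocytes had its peak in the dark (ZT15.6). The counts of called markers stand against the 36.8% of all genes that were called, and those of endothelial (3 of 7) and stellate cells (2 of 7) are near or below that share. The 7 markers of Kupffer cells, the macrophages of the liver, summed to 109.6 at the lowest, 209 at the median and 291 at the highest, with a fitted peak at ZT8.48 and an amplitude of 0.41, and 4 of the 7 were called (*Cd5l*, *Timd4*, *Marco* and *Csf1r*). Their most abundant gene, *Clec4f*, averaged 71.7. The 7 markers of sinusoidal endothelial cells summed to 147, 241 and 331, with a peak at ZT7.99 and an amplitude of 0.27, and 3 were called (*Stab2*, *Stab1* and *Kdr*), the most abundant being *Ptprb* at 61.3. Leukocyte markers, of which none of 5 was called, had a sum between 5.53 and 15.2 with an amplitude of 0.23 and a peak at ZT6.63, and the sum of the stellate cell markers peaked at ZT6.79 with 0.10, where the called genes *Col3a1* and *Reln* had amplitudes of 0.32 and 0.23 and peaks at ZT7.27 and ZT6.51. The 8 hepatocyte markers, led by *Alb*, summed to between 70118 and 101225 with an amplitude of 0.12 and a peak at ZT19.7, a sum that is mostly *Alb*, which was not called. Of the 8, 4 were called, among them *Tat* with an amplitude of 0.38. Genes at the lowest value in all livers had been left out beforehand, and *Cftr* of the cholangiocyte list and *Cd3e* and *Nkg7* of the leukocyte list were not among the genes tested. The part of these cells in the results was not tested, and in whole liver fewer cells of a type and less RNA per cell cannot be told apart.

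*Pygl*, the phosphorylase that breaks glycogen down, had the smallest amplitude of the 9 genes. Its values were 557, 536 and 573 at ZT1, 449.9, 509 and 499 at ZT5, and 552, 393 and 446 at ZT9. They were 676, 522 and 613 at ZT13, 520.3, 620.0 and 569 at ZT17, and 571, 573 and 623 at ZT21. The highest time, ZT13, and the lowest, ZT9, overlapped, and of the neighbouring means those of ZT1 and ZT5 alone did not. The cosine peaked at ZT18.6 ± 1.11 h with an amplitude of 0.17 ± 0.05, a 1.27-fold change (1.1 to 1.46), when the median amplitude of all genes tested was 0.16 (1.25-fold). Its adjusted p in limma was 0.0301 for the cosine and 0.0465 for the time points, and JTK made no call (q = 0.238). With every liver scaled to the same total, both limma calls were lost, with adjusted p of 0.166 for the cosine and 0.187 for the time points, and the time point call was also lost with no trend in the limma prior (0.0946). Leaving out single livers, the cosine call was lost in 5 of 18 fits (adjusted p up to 0.0631, without ZT5 replicate 1, ZT9 replicate 2 or 3, ZT17 replicate 2 or ZT21 replicate 3) and the time point call in 15 of 18 (up to 0.115).

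Within each liver, the ratio of synthase to phosphorylase compares both genes without regard to how the livers were scaled. The log2 ratio of *Gys2* to *Pygl* was -2.48 ± 0.14 (SD, n = 3) at ZT1, -1.17 ± 0.06 at ZT5 and -0.60 ± 0.23 at ZT9. It was -1.23 ± 0.27 at ZT13, -1.69 ± 0.10 at ZT17 and -2.31 ± 0.11 at ZT21. At ZT9 every liver was above every liver of the other times, and at ZT1 and ZT21 every liver was below those of the other 4. The amplitude was 0.89, with the peak at ZT9.92, and a permutation test of the 18 livers over the times gave p = 1e-05, the smallest that 100000 resamples can give (4e-05 adjusted over the 4 ratios tested).

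The subunits that bring protein phosphatase 1 to glycogen differed in level and in time. *Ppp1r3b*, the subunit known as GL, had values of 313, 258 and 304 at ZT1, 110.4, 166 and 171 at ZT5, and 174, 111 and 281 at ZT9. It was at 539, 577 and 726 at ZT13, 497, 545 and 458 at ZT17, and 528, 354 and 466 at ZT21. Each of the 9 dark livers exceeded each of the 9 light livers. The cosine peaked at ZT17.3 ± 0.51 h with an amplitude of 0.99 ± 0.13, a 3.94-fold change (2.69 to 5.78). The adjusted p was 3.9e-05 for the cosine and 9.5e-06 for the time points in limma, and the JTK q-value was 0.0354, which rose to 0.0670 with equal totals. The JTK call also held in only 8 of the 18 fits that left out a liver and was lost, with q up to 0.0978, without any liver of ZT1 or ZT5, ZT9 replicate 1 or 3, ZT17 replicate 2 or ZT21 replicate 2. The mean rose from 188 ± 86.0 (SD, n = 3) at ZT9 to 614 ± 99.0 at ZT13, across the 4 h in which the lights went off.

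*Ppp1r3c*, the subunit known as PTG, had its highest means at ZT1, ZT17 and ZT21 and its lowest at ZT13, where *Ppp1r3b* was highest. In the light, it was at 104, 171 and 145 at ZT1, 36.4, 127 and 60.5 at ZT5, and 18.5, 47.5 and 38.7 at ZT9. In the dark, it was at 23.1, 31.9 and 42.4 at ZT13, 156, 64.5 and 196 at ZT17, and 74.9, 180.1 and 118 at ZT21. All 6 livers of ZT9 and ZT13 were below all 9 livers of ZT17, ZT21 and ZT1, while those of ZT5 reached into both ranges and all 5 neighbouring pairs overlapped. The cosine peaked at ZT22.1 ± 0.65 h with an amplitude of 1.16 ± 0.20, the largest of the 9 genes, a 4.98-fold change (2.82 to 8.78). Its adjusted p in limma was 0.000446 for the cosine and 0.00178 for the time points. JTK made no call (q = 0.159), with a coefficient of variation of 0.417 between replicates against 0.554 between time points.

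*Ppp1r3g*, the third of these subunits, was near the limit of detection. Estimated reads ranged from 0 to 18 per liver, and in 4 livers the gene was at the lowest value of the library. The values were 0.0346, 0.490 and 0.908 at ZT1, 1.5, 0.707 and 0.354 at ZT5, and 0.638, 0.792 and 0.234 at ZT9. They were 0.205, 0.513 and 0.0434 at ZT13, 0.0343, 0.303 and 0.170 at ZT17, and 0.0404, 0.704 and 0.383 at ZT21. No call was made by the cosine (adjusted p = 0.0895 in limma), by the time points (0.356 in limma) or by JTK (q = 0.835). A rhythm is not read from these values, and the part of depth in the missing calls was not tested. Without ZT1 replicate 1, one of the 4 livers at the lowest value, the adjusted p of the cosine was 0.0308 in limma.

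Levels of different genes can be compared only per length, and on the scale of the mean value per 1000 bases of the longest coding transcript *Pygl* was at 182, *Pklr* at 139, *Ppp1r3b* at 83.3 and *Gckr* at 77.9. On the same scale *Gys2* was at 73.2, *Slc2a2* at 59.2, *Ppp1r3c* at 33.4, *Pfkfb1* at 20.8 and *Ppp1r3g* at 0.187. Divided by the combined length of all exons, *Pklr* came first and *Pygl* second, so the order of these genes depends on which transcripts are present. Per 1000 bases of the longest coding transcript, *Ppp1r3b* went from 43.0 at ZT9 to 140.0 at ZT13, when *Ppp1r3c* was at 12.8 and 11.9. At ZT1 they were at 66.5 and 51.5.

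The log2 ratio of *Ppp1r3b* to *Ppp1r3c* was 1.08 ± 0.50 (SD, n = 3) at ZT1, 1.15 ± 0.66 at ZT5 and 2.40 ± 1.05 at ZT9. It was highest at ZT13 at 4.23 ± 0.23, where all 3 livers were above all others, and was 1.98 ± 0.96 at ZT17 and 1.91 ± 0.92 at ZT21. Its amplitude was 1.27 with a peak at ZT13.3 (permutation p = 0.00376, adjusted over the 4 ratios 0.00501). The ratio of *Ppp1r3g* to *Ppp1r3b*, one of the 4 computed, is not read as a comparison of the pair, since with a numerator near its floor and a pseudocount of 1 it follows *Ppp1r3b* upside down.

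The ratio of *Pklr* to *Pfkfb1* had the smallest amplitude of the 4. On the log2 scale it was 3.23 ± 0.04 (SD, n = 3) at ZT1, 3.55 ± 0.67 at ZT5, 3.77 ± 0.48 at ZT9, 3.39 ± 0.28 at ZT13, 3.06 ± 0.27 at ZT17 and 2.99 ± 0.46 at ZT21. The amplitude was 0.38 with a peak at ZT8.02 (permutation p = 0.0272, adjusted 0.0272). This call was lost in 4 of 18 fits that left out a liver (ZT5 replicate 2, ZT9 replicate 3, ZT17 replicate 1 or ZT21 replicate 1), with adjusted p up to 0.0692 by permutation.

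**Figure D2:**
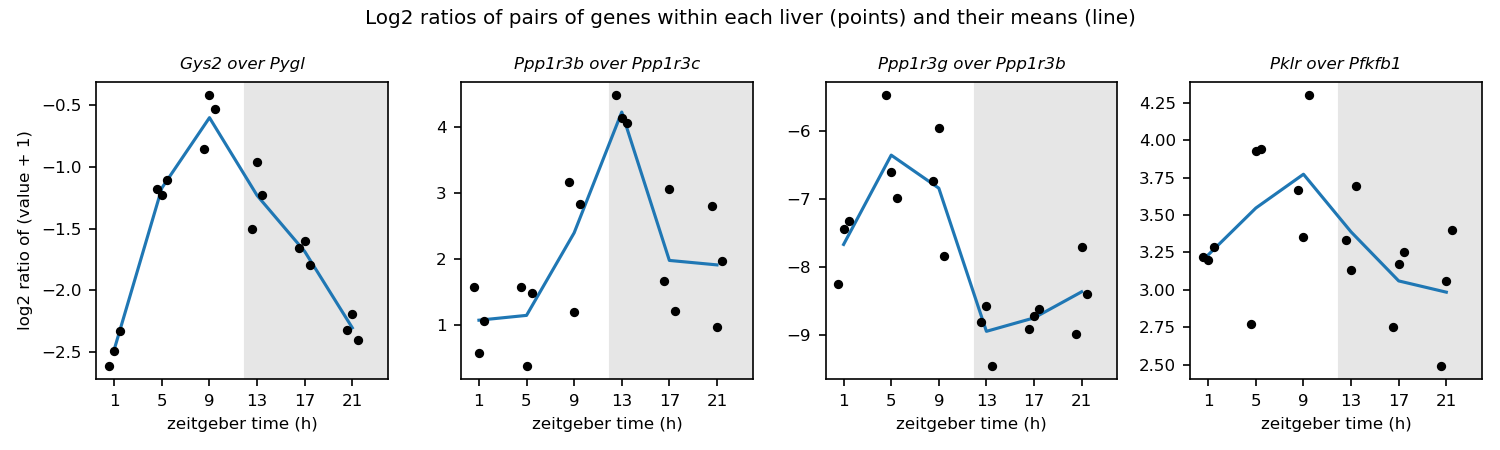
Log2 ratio of (value + 1) of 4 pairs of genes against zeitgeber time in hours, with 1 point per liver and a line through the means of each time (n = 3); the vertical axes differ between panels and the dark phase is shaded. The ratio of *Gys2* to *Pygl* went from -2.48 at ZT1 to -0.60 at ZT9, and that of *Ppp1r3b* to *Ppp1r3c* was highest at ZT13 at 4.23. The ratio with *Ppp1r3g* near its floor is not read as a comparison of the pair.

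Ordered by fitted peak, the called genes ran from *Slc2a2* (ZT9.34) and *Gys2* (ZT10.5) over *Pklr* (ZT14.0), *Pfkfb1* (ZT16.2), *Ppp1r3b* (ZT17.3) and *Pygl* (ZT18.6) to *Ppp1r3c* (ZT22.1) and *Gckr* (ZT23.3). With time points 4 h apart and standard errors between 0.27 and 1.11 h, the order of direct neighbours such as *Pfkfb1* and *Ppp1r3b* was not tested. By amplitude, *Ppp1r3c* was above 99.6% of all genes tested, *Ppp1r3b* above 99.3%, *Gys2* above 98.6%, *Pfkfb1* above 97.9%, *Pklr* above 96.4% and *Slc2a2* above 95.6%. *Gckr* was above 67.3% and *Pygl* above 52.7%. These shares are over all 14449 genes, and the pseudocount of 1 makes the amplitudes of low genes smaller. Shares among the more abundant genes alone were not computed.

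**Figure D3:**
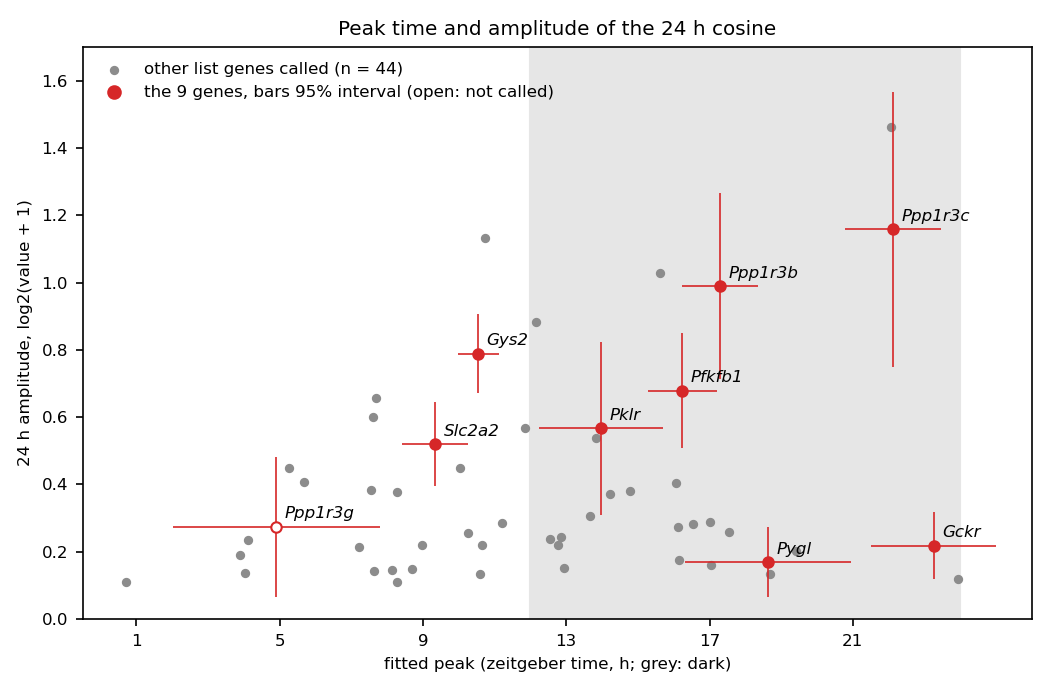
Amplitude of the 24 h cosine (vertical axis, log2 scale) against the fitted peak in hours of zeitgeber time, with the 9 genes in red with 95% intervals (open where not called) and the 44 other called genes of the pathway lists in grey; the dark phase is shaded. *Ppp1r3c* and *Ppp1r3b* have the largest amplitudes of the 9, at 1.16 and 0.99, and *Pygl* the smallest, at 0.17.

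The wider pathway was described with 6 lists of 99 genes, of which 91 were measured, the 9 genes included. The cosine was called for 52 of the 91 (57.1%), with 25 peaks in the light and 27 in the dark, and JTK called 21. Of all genes, 36.8% were called by the cosine, 18.6% with a peak in the light and 18.2% in the dark, and 14% by JTK. With every liver scaled to the same total, 49 were called, with 32 peaks in the light and 17 in the dark, a shift that also took place over all genes, where the share of called genes that peak in the light went from 50.6% to 67.7%. The lists were not tested as sets.

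Among genes of glucose and fructose uptake and phosphorylation, 14 of 17 were measured and 8 were called (36.8% of all genes were), 3 with a peak in the light and 5 in the dark, or 4 and 4 with equal totals. *Slc2a5*, a fructose transporter, peaked at ZT7.61 (amplitude 0.60, adjusted p = 0.00405 in limma), and *Tkfc*, which phosphorylates the triose that fructose breakdown yields, peaked at ZT13.8 (0.54, 3.4e-05 in limma). *Slc2a4*, the insulin-regulated transporter of muscle and fat, had a mean value of only 1.24 and rose to 4.37 ± 1.80 at ZT13 (amplitude 0.88, adjusted p = 0.000853 in limma).

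Of the glycolysis genes, 24 of 25 were measured and 14 were called, against 36.8% of all genes. The peak lay in the light for 3 and in the dark for 11 (18.6% and 18.2% of all genes), but with equal totals 11 were called, 4 in the light and 7 in the dark. *Gpi1*, the isomerase that follows glucose phosphorylation, peaked at ZT13.7 with an amplitude of 0.31 (adjusted p = 0.000181), and *Eno1*, an enolase, at ZT16.5 with 0.28 (adjusted p = 0.000155, both in limma). *Pfkfb3*, a paralog of *Pfkfb1* with a strong kinase activity, had the largest amplitude of the list at 1.13 ± 0.25 and an earlier peak, at ZT10.7 (adjusted p = 0.00422 in limma). Its ZT9 livers spread widely, at 30.0 ± 21.1 (SD, n = 3), and JTK did not call it (q = 0.273).

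The list of glycogen synthesis and breakdown was measured in full, 22 of 22, and 13 were called, against 36.8% of all genes. The peak lay in the light for 10 and in the dark for 3 (18.6% and 18.2% of all genes), and for 12 and 1 with equal totals. *Stbd1*, which anchors glycogen to membranes, peaked close to *Gys2*, at ZT10.0, with an amplitude of 0.45 (adjusted p = 0.000549 in limma). *Phka2*, the liver regulatory subunit of phosphorylase kinase, and *Epm2a*, the glycogen phosphatase laforin, peaked at ZT5.27 and ZT5.67, with amplitudes of 0.45 and 0.41. Their adjusted p in limma was 5.97e-05 and 0.00165. *Gys1*, the synthase of muscle, had a mean value of 2.68 and peaked at ZT14.8 (amplitude 0.38, adjusted p = 0.00635 in limma), so the 2 synthase genes differed in fitted peak, a difference that was not tested.

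Of the phosphatase 1 list, 7 of 10 were measured and 5 called, *Ppp1r3b* and *Ppp1r3c* and the genes of the 3 catalytic subunits (36.8% of all genes were called). *Ppp1cc* had an amplitude of 0.14 (peak ZT8.13), *Ppp1ca* of 0.12 (peak ZT23.9) and *Ppp1cb* of 0.11 (peak ZT0.71), with adjusted p of 0.00648, 0.0462 and 0.0260 in limma, and JTK called none of the 3. *Ppp1r3e*, another glycogen-targeting subunit, had an amplitude of 0.18 and was not called.

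Pyruvate entry into mitochondria and its oxidation had 12 of 13 genes measured and 5 called, a share near the 36.8% of all genes. *Pdk4*, the kinase that turns pyruvate dehydrogenase off, fell from 25.9 ± 6.81 (SD, n = 3) at ZT1 to 2.34 ± 0.30 at ZT9, with an amplitude of 1.46 ± 0.17 and a peak at ZT22.1, near that of *Ppp1r3c* (adjusted p = 7.1e-06 in limma). *Pdhb*, *Dlat* and *Pdp2*, which encode 2 subunits of the complex and a phosphatase that turns it on, had amplitudes between 0.21 and 0.28 with peaks at ZT11.2, ZT4.12 and ZT7.22. Of the transcription factor list, 7 of 12 were called, against 36.8% of all genes. *Srebf1*, whose product drives lipogenic and glycolytic genes downstream of insulin, peaked at ZT11.9 with an amplitude of 0.57 (adjusted p = 0.000146 in limma), and *Txnip*, a glucose-responsive gene that limits glucose uptake, at ZT7.68 with 0.66 (0.000814 in limma). *Mlx*, the partner of ChREBP, peaked at ZT16.1 with 0.27 (adjusted p = 0.000171 in limma), while *Mlxipl* itself was not called.

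**Figure D4:**
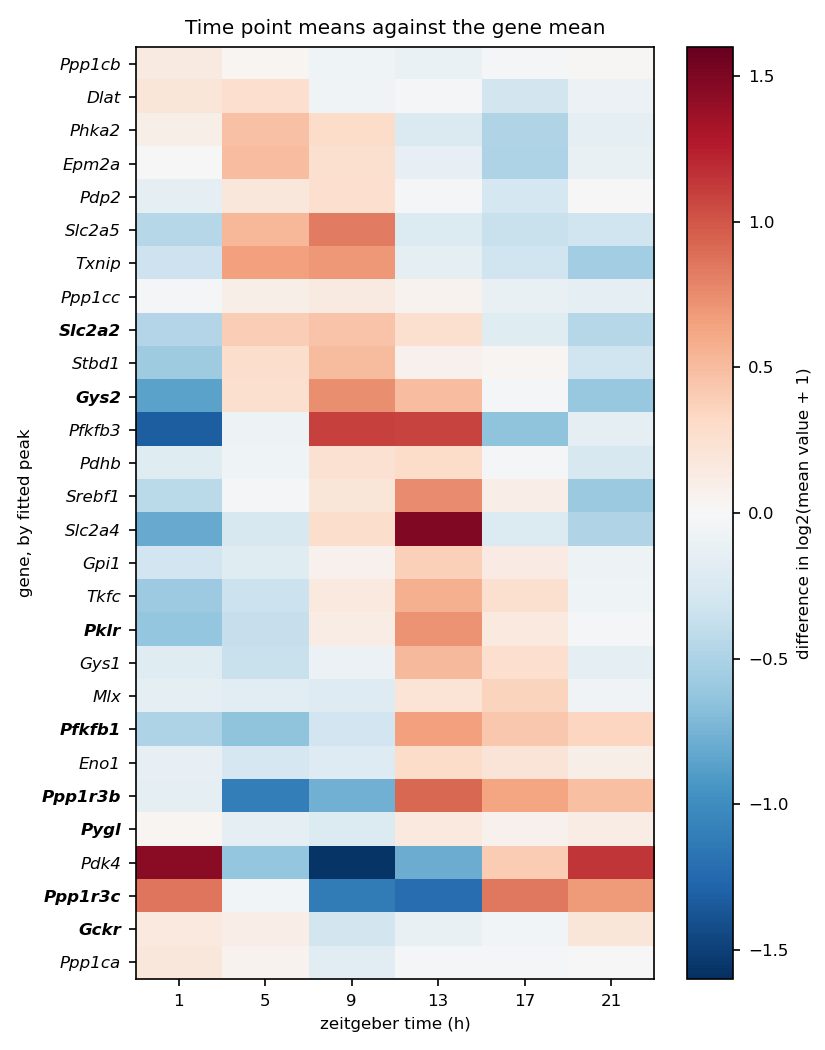
Log2(mean value + 1) of each time point against its mean over the 6 time points for 28 genes called by the cosine, the 8 called genes of the 9 in bold and the called genes named above from the pathway lists, in the order of their fitted peak; columns are zeitgeber times in hours and the scale runs to 1.6 in either direction. *Gys2* and *Stbd1* are high at ZT9, *Pklr* and *Tkfc* at ZT13, and *Ppp1r3c* and *Pdk4* at ZT1 and low at ZT9.

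For each gene, the genes of most similar course were taken as those with the highest Pearson correlation of log2 levels over the 18 livers, among 9324 genes with a mean value of at least 5. These are descriptions over livers that differ in time of day, which all genes share within a liver. For *Gys2* they were *Per3* (r = 0.967) and *Tef* (r = 0.966), a clock repressor and a clock output factor, with peaks at ZT10.8 and ZT10.7. For *Pklr* it was *Tkfc* (r = 0.950), of fructose breakdown. For *Slc2a2* they were *Slc1a2* (r = 0.923), a glutamate transporter, and *Limd2* (r = 0.912). *Pfkfb1* was most like *Gm16573* (r = 0.952), annotated as antisense, and *Asl* (r = 0.948), a urea cycle enzyme. *Ppp1r3b* was most like *Nolc1* (r = 0.940), of the nucleolus, and *Ppp1r1b* (r = 0.935), a protein phosphatase 1 inhibitor. *Ppp1r3c* was most like *Btg1* (r = 0.904) and *Pnrc2* (r = 0.875), *Gckr* like *Ehhadh* (r = 0.872), of peroxisomal fatty acid oxidation, and *Chkb* (r = 0.863), and *Pygl* like *Acsl1* (r = 0.840), which activates fatty acids. *Ppp1r3g* was most like *Spg11* (r = 0.829) and *Brap* (r = 0.794). Since *Ppp1r3g* had 0 to 18 estimated reads per liver and was at the lowest value in 4, its correlations are not read.

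Among the 9 genes themselves, livers of the same time point differed together in some pairs. After the mean of each time point was taken off, *Pklr* and *Pygl* correlated at r = 0.795 over the 18 livers and *Gckr* and *Gys2* at r = 0.766, although over all livers *Gckr* and *Gys2* had r = -0.609. *Gys2* and *Ppp1r3c* had r = -0.751 over all livers and r = -0.04 within time points.

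Without ZT5 replicate 3, the liver closest to ZT9 by its clock genes, the cosine was called for the same 8 genes, with amplitudes of 0.78 for *Gys2*, 0.50 for *Slc2a2*, 0.62 for *Pklr* and 1.00 for *Ppp1r3b*. The time point test called 7, without *Pygl* (adjusted p = 0.0657 in limma), and JTK called 2, without *Pfkfb1* (q = 0.0527) and *Ppp1r3b* (q = 0.0815). Without ZT5 replicate 1, which had the highest marker sums of Kupffer cells, sinusoidal endothelial cells, stellate cells, leukocytes and erythroid cells and also the lowest *Pklr*, the cosine and the time point test each called 7, without *Pygl* (adjusted p = 0.0622 and 0.0749 in limma). JTK then called *Gys2* (q = 0.0140) and no other of the 9, with q-values of 0.0589 for *Slc2a2*, 0.0640 for *Pfkfb1* and 0.0978 for *Ppp1r3b*. The amplitude of *Pklr* was 0.50 without it. Among the other cell types, markers of stellate cells (called 2 of 7, led by *Dcn* at 100.4) and cholangiocytes (3 of 5, led by *Spp1* at 34.8), against 36.8% of all genes called, had sums with amplitudes of 0.10 and 0.11, in which *Dcn* and *Spp1*, not called themselves, weigh most. The called cholangiocyte markers moved more, with amplitudes of 0.57 for *Sox9* (peak ZT20.9), 0.39 for *Krt19* (ZT19.1) and 0.26 for *Epcam* (ZT12.6), at mean values of 5.74, 1.58 and 1.37, and their part in the results on genes peaking in the dark was not tested. Markers of leukocytes (led by *Ptprc* at 8.64) and erythroid cells (led by *Alas2* at 102) had no called gene of 5 measured in either list, and the erythroid sum had an amplitude of 0.27 with a peak at ZT0.05. Of pancreas, fat and muscle, 2, 1 and 2 genes were measured, led by *Cela1* at 9.28, *Cfd* at 0.627 and *Ckm* at 0.310, and none was called. The sums of pancreas and fat had fitted peaks at ZT0.16 and ZT10.2, and that of muscle, with a median of 0.0900, reached 3.51 in ZT17 replicate 2 and 2.41 in ZT1 replicate 2, so its fitted peak is not read.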

How the data were processed

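The authors processed the RNA-seq reads of 18 mouse livers. Per the processing notes, base calling used CASAVA 1.8.2 and the counts were estimated by RSEM 1.2.20, with GRCm38 transcripts as the reference. Cutadapt had trimmed the adapters before that step, and limma served to normalize the estimated counts. What the authors deposited is a linear signal: 0.5 was added to each gene's estimated reads, and the result was expressed per 1000000 of a library size they adjusted. Counts could not be taken as whole, so tests were run on log2(value + 1), and fold changes of low genes are understated. A gene without reads carries the added 0.5 alone, which gave the depth of each liver. Genes without reads in any liver (2) were left out.

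Groups follow the zeitgeber time in the labels. limma 3.58.1 in R 4.3.3 fitted a 24 h cosine, and the 6 time points, to 14449 genes with a trend prior, and moderated F tests were adjusted by Benjamini-Hochberg over all genes. JTK compared ranks with 18 cosine orders of 20, 24 and 28 h, with Bonferroni over the orders and Benjamini-Hochberg over genes. The null was that of 6 distinct groups and took no account of times with equal cosine, which makes the p-values too large. Log2 ratios were tested by permuting the livers over the times. Calls are at an adjusted p below 0.05. Other steps ran in scipy 1.17.1, pandas 2.3.3 and numpy 2.4.6 under Python 3.11.15. The code of the limma fits and of JTK was tested on simulated data. CircaN was not run here.

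The 9 genes, the pathway and marker lists and the tests were chosen with earlier results of these data known. Named besides the 9 genes are, per pathway list, up to 4 called genes with the largest amplitude, 2 genes of most similar course for each of the 9, the top gene of each marker list and 4 clock genes. *Mlxipl*, *Ppp1r3e*, *Hcn3*, *Apex2* and the called marker genes were named after their values were seen. Some genes that the rule names are not reported here. Annotation is GENCODE M21, and promoter windows are RefSeq's. Alternatives covered the pseudocount, a filter on low values, the scaling, the prior, 12 h terms, the JTK null and periods, and leaving out each liver.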

Additional observations from a re-analysis of the deposited data

How the results depend on the processing

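The cosine was called for 5320 genes, from 5103 to 5554 under the alternatives and from 4786 to 5284 without single livers, and for 8 of the 9 genes, from 7 to 8 and from 7 to 9. The time point test called 4215 genes (3802 to 4273, and 3676 to 4079 without single livers) and 8 of the 9 (6 to 8 in both). JTK called 2018 genes, and 3237 when times of equal cosine were taken as 1 group. That second null matches the ties in the cosine orders, so the main JTK calls are strict. Under no alternative did JTK call more than 4 of the 9 genes. Without single livers it called 1127 to 1793 genes and 1 to 4 of the 9, where *Gys2* was called in all 18 of these fits, *Slc2a2* in 9, *Ppp1r3b* in 8 and *Pfkfb1* in 6, each with fewer livers. Without single livers, the fitted peak of *Gckr* lay between ZT22.8 and ZT23.8 and that of *Pygl* between ZT18.0 and ZT19.6. Amplitudes of the ratios without single livers were 0.85 to 0.94 for *Gys2* to *Pygl*, 1.13 to 1.41 for *Ppp1r3b* to *Ppp1r3c* and 0.30 to 0.47 for *Pklr* to *Pfkfb1*. No paired analysis was possible because replicate numbers were given in accession order and tie no liver of one time to a liver of another. *Ppp1r3g* had the fewest reads of the 9 genes, 0 to 18 estimated per liver, and how its calls depend on depth was not tested. The design, with 3 livers per time and 1 cycle, limits what can be said of the shape of a curve.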
